A study of Homo sapiens with 16 samples.

Results

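The 8 genes described here encode enzymes, a receptor and inhibitors that act on the matrix around cells: the plasminogen activators PLAU and PLAT, the urokinase receptor PLAUR, the serpin SERPINE2, the metalloproteases MMP2 and MMP14, and the metalloprotease inhibitors TIMP1 and TIMP2. They were taken by gene symbol from a table of 63187 genes, in which each had 1 row. Of the 8 genes, 7 passed the low-count filter and were tested among 19530 genes. PLAU, with 0 to 13 counts per library, did not pass and is described by its counts.

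RNA-seq was run on 16 libraries of SK-N-BE(2), a cell line from a human neuroblastoma in which MYCN is amplified. The genotypes in the labels are WT, FL, NCTAD and cIDR, with 4 libraries each. FL cells were transfected with the full-length form of HIF-2α, the oxygen-regulated transcription factor subunit that the gene EPAS1 encodes. The study's design text writes the other forms ΔN-CTAD and Δc-IDR, which reads as proteins lacking those regions. The column headers of the tables name the line BE2c, WT control, FL wild type and N-CTAD NTAD, and the groups follow the labels. All cells grew in medium with 10% FBS at 21% O2, so no group was made hypoxic by the protocol. The vector, the time after transfection, the residues removed and any empty-vector treatment of WT cells are not in the labels, and transfection itself cannot be told apart from HIF-2α in a comparison with WT. The replicate number is also called a batch in the labels, and each of batches 1 to 4 holds 1 library of every group. Nothing says that the replicates are separate cultures, so p-values measure the spread between these libraries.

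Plasminogen is a circulating proenzyme that PLAU (urokinase) or PLAT (tissue plasminogen activator) cuts into plasmin, a broad protease. PLAUR holds urokinase at the cell surface, and SERPINE2 is among the serpins that inhibit the activators. MMP14 is a membrane-anchored protease that activates the secreted gelatinase MMP2 in a complex with TIMP2, while TIMP1 inhibits the secreted metalloproteases and is a poor inhibitor of MMP14. In neuroblastoma these enzymes have been studied for invasion and matrix turnover, and MMP14 and PLAUR have been described as hypoxia-inducible in other cell types.

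Depth was 38.6 to 56.1 M (mega) counts per library. EPAS1 was at 13.0 to 28.1 CPM (counts per 1 M counts) in WT and at 1320 to 5852 CPM in the transfected libraries, with no overlap, in the direction the labels give. The place of batch 2 in EPAS1 differed between groups. It was the highest library in WT, at 28.1 against 13.0 to 17.3 CPM, and the lowest in NCTAD, at 1320 against 2203 to 4228 CPM, and in cIDR, at 2189 against 4078 to 5852 CPM. In FL it lay between the others, at 2001 against 1691 to 3580 CPM. The adrenergic neuroblastoma markers, 8 genes that include HAND2 and MYCN, summed to 3186 to 3865 TPM (transcripts per 1 M transcripts, which corrects for length) over the 16 libraries. COL1A2 and PRRX1, which mark fibroblasts, had at most 4 and 10 counts, SOX10, of Schwann cells, at most 4, PECAM1, of endothelium, at most 3, and PTPRC, of leukocytes, at most 2.

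The 8 genes spanned a wide range of levels. TIMP2 was the highest by TPM, at 101.7 ± 8.75 (mean ± SD, n = 16 libraries for each gene here), followed by MMP2 at 86.2 ± 13.7 and TIMP1 at 74.1 ± 13.6 TPM. PLAT was at 30.1 ± 4.97 TPM. The membrane-anchored MMP14 and the receptor PLAUR were much lower: MMP14 was at 1.54 ± 0.89 TPM and PLAUR at 0.74 ± 0.47 TPM. SERPINE2 was at 0.38 ± 0.19 TPM and PLAU at 0.049 ± 0.044 TPM. Within a library, TIMP2 was above MMP2 in 15 of 16 libraries, MMP2 above TIMP1 in 13, MMP14 above PLAUR in 16, PLAUR above SERPINE2 in 13 and SERPINE2 above PLAU in 16. Those neighbours overlap in range over all libraries. The steps from TIMP1 to PLAT and from PLAT to MMP14 showed no overlap between any of the 16 libraries, and the plot of TPM by gene shows that gap.

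**Figure D1:**
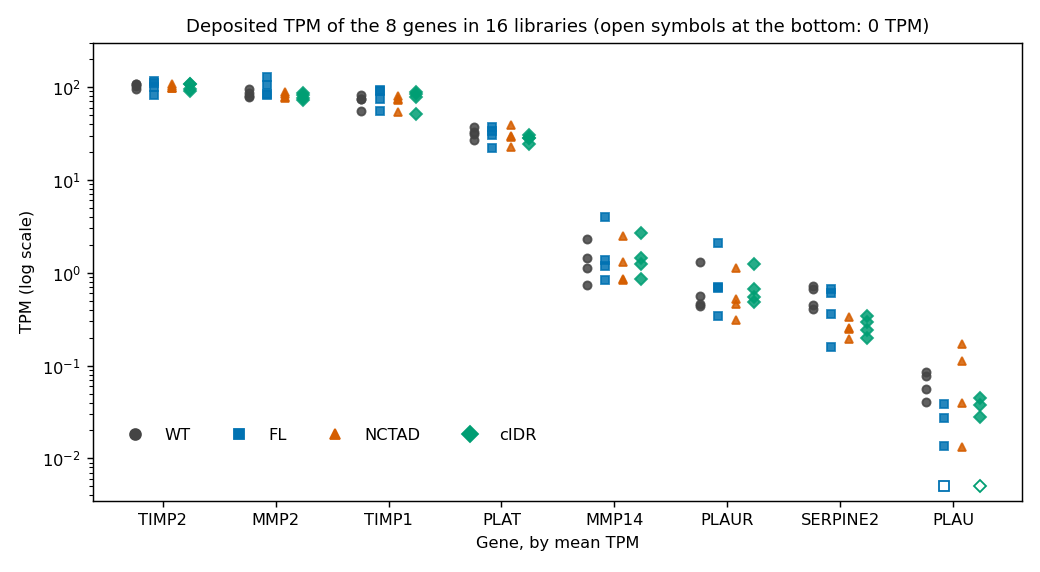
Deposited TPM of the 8 genes (log axis), 1 symbol per library, with colour and shape for the group. TIMP2, MMP2, TIMP1 and PLAT lie at 22.2 TPM or more in every library, and MMP14, PLAUR, SERPINE2 and PLAU at 4.01 TPM or less, with PLAU listed at 0 in 1 FL and 1 cIDR library.

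By position on GRCh38 with GENCODE 29, the activators and their partners lie apart: PLAT at chr8:42175233-42207724, PLAU at chr10:73909177-73917497, PLAUR at chr19:43646095-43670547 and SERPINE2 at chr2:223975112-224039319. MMP2 lies at chr16:55389700-55506691, MMP14 at chr14:22836557-22849027, TIMP1 at chrX:47582313-47586789 and TIMP2 at chr17:78852977-78925387. TIMP1 overlaps SYN1 on the opposite strand, and the strand setting of the counting is not given in the sources used here, so reads of that pair may not be fully separated. SYN1 was at 34.8 to 38.6 CPM in batch 2 and 32.6 to 43.7 CPM in the other batches, ranges that overlap, unlike those of TIMP1 below. The other overlapping genes looked up were near 0: MMP2-AS1 had at most 1 count, C10orf55, across PLAU, at most 3, and CEP295NL, inside TIMP2, at most 17.

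Batch 2 stood apart from batches 1, 3 and 4 in most of these genes. MMP14, PLAUR and PLAT were higher in batch 2, TIMP1 and MMP2 were lower, and TIMP2 and SERPINE2 did not pass the test. With group and batch in edgeR's quasi-likelihood fit, 5 of the 7 tested members were called at an adjusted p under 0.05, 3 of them higher and 2 lower. The same contrast called 53.9% of all tested genes, 27.7% higher and 26.1% lower, so a call in batch 2 is common among genes of any kind. The libraries of batch 2 did not overlap those of the other batches for 3 members, MMP14, PLAUR and TIMP1, against 29% of all tested genes. Which step of the experiment the batch number marks is not in the labels. Batch 2 is 1 batch, so its SEs and p-values compare these libraries and not a condition. They rest on the spread within batches and hold no spread between batches.

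**Figure D2:**
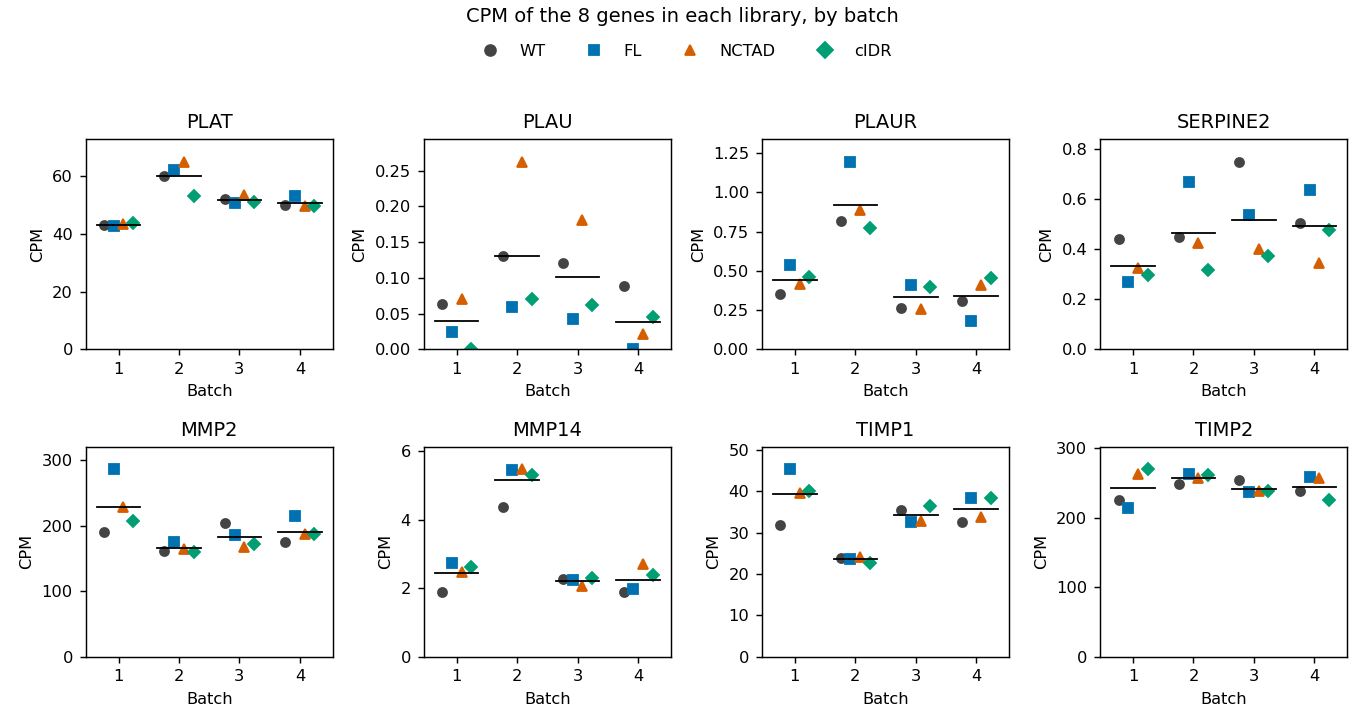
CPM of each gene (linear axes from 0, scaled per gene) against batch, 1 symbol per library, with a bar at the mean of the 4 libraries of a batch. In batch 2 MMP14 sits at 4.37 to 5.47 CPM and PLAUR at 0.775 to 1.19 CPM, above all other libraries, and TIMP1 at 22.6 to 24.1 CPM, below all others.

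Among the proteases, MMP14, the membrane-anchored activator of MMP2, had batch 2 values of 4.37 (WT), 5.44 (FL), 5.47 (NCTAD) and 5.30 (cIDR) CPM. In the other 12 libraries it had a lowest value of 1.89, a median of 2.29 and a highest of 2.74 CPM. Every batch 2 library was therefore above every other library, also within WT, where the rest were at 1.89 to 2.27 CPM. MMP14 was 2.24-fold higher in batch 2 (log2 fold change 1.16 ± 0.099 SE, adjusted p = 1.92e-07). The counts behind these values were 235 to 301 in batch 2 and 86 to 126 elsewhere.

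MMP2, the secreted gelatinase, went the other way and by less. Its batch 2 values were 161 (WT), 175 (FL), 165 (NCTAD) and 160 (cIDR) CPM, against a lowest of 168, a median of 189 and a highest of 286 CPM in the other libraries. FL in batch 2 was above the lowest of the other libraries, so the ranges overlap, while within each group batch 2 held the lowest of the 4 values. Batch 2 was the lowest in all 4 groups for 18% of all tested genes. The log2 fold change was −0.27 ± 0.068 (adjusted p = 0.0042). It was −0.17 without batch 1, whose FL library held the highest MMP2 value (adjusted p = 0.00818), and with log2(TPM + 1) in limma it was −0.16 and no longer called (adjusted p = 0.105).

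The ratio of MMP2 to its activator followed from both. On TPM, MMP2 stood at 21.2 to 33.5 times MMP14 in batch 2 and at 59.7 to 125 times MMP14 in the other libraries, without overlap.

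Of the metalloprotease inhibitors, TIMP1 had batch 2 values of 23.9 (WT), 23.6 (FL), 24.1 (NCTAD) and 22.6 (cIDR) CPM. The other libraries ran from 32.0 over a median of 35.9 to 45.3 CPM. The batch 2 libraries were close to each other and all below the rest. TIMP1 was at 0.649 of its level in the other batches (log2 fold change −0.62 ± 0.069, adjusted p = 2.64e-06).

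TIMP2, which bridges MMP14 and MMP2, was at 249 to 262 CPM in batch 2 and at 214 to 270 CPM in the others, where the median was 239. Its ranges overlap, and the log2 fold change was 0.083 ± 0.056 (adjusted p = 0.231, 95% interval −0.038 to 0.20). Without batch 1 it was 0.087 and passed (adjusted p = 0.0476). On TPM, TIMP2 stood at 1.96 to 2.13 times TIMP1 in batch 2 and at 0.887 to 1.38 times TIMP1 elsewhere, without overlap.

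In the plasminogen arm, PLAUR, the urokinase receptor, had batch 2 values of 0.819 (WT), 1.19 (FL), 0.888 (NCTAD) and 0.775 (cIDR) CPM, from 44 to 61 counts. The other 12 libraries had a lowest value of 0.179, a median of 0.401 and a highest of 0.534 CPM, from 9 to 22 counts. All 4 libraries of batch 2 were above the rest despite the low counts. PLAUR was 2.51-fold higher (log2 fold change 1.33 ± 0.22, 95% interval 0.85 to 1.80, adjusted p = 0.000143).

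PLAT, the tissue plasminogen activator, is abundant in these cells. Its batch 2 values were 59.9 (WT), 62.0 (FL), 65.0 (NCTAD) and 53.1 (cIDR) CPM, against a lowest of 42.6, a median of 49.9 and a highest of 53.6 CPM elsewhere. The cIDR library of batch 2 overlaps the others. PLAT also varied among the other batches, with batch 1 at 42.6 to 43.9 CPM and batches 3 and 4 at 49.5 to 53.6 CPM. The log2 fold change of batch 2 was 0.31 ± 0.043 (adjusted p = 2.96e-05), and 0.23 without batch 1.

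SERPINE2, or protease nexin-1, an inhibitor of thrombin and of both activators, had batch 2 values of 0.447 (WT), 0.666 (FL), 0.424 (NCTAD) and 0.317 (cIDR) CPM, from 18 to 34 counts. Elsewhere it was at 0.267 to 0.748 CPM with a median of 0.418. Batch 2 lies inside that range, and the log2 fold change was 0.075 ± 0.23 (adjusted p = 0.801, 95% interval −0.41 to 0.56). It was −0.10 without FL replicate 2 and −0.11 without batch 1. PLAU had 3 to 13 counts per library in batch 2 and 0 to 10 in the others. Within each of the 4 groups its batch 2 library was the highest, at 0.130 against at most 0.121 CPM in WT, 0.0587 against 0.0430 in FL, 0.262 against 0.181 in NCTAD and 0.0704 against 0.0623 in cIDR, and over all groups the ranges overlapped. Batch 2 was the highest in all 4 groups for 19.1% of all tested genes. PLAU was below the low-count filter, and with no filter the adjusted p for batch 2 was 0.16.

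**Figure D3:**
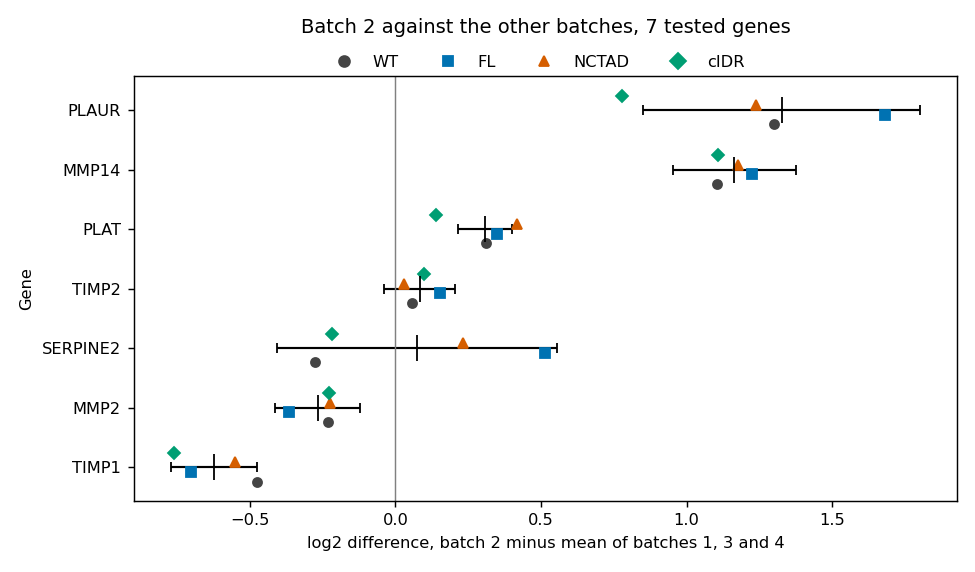
Log2 difference of batch 2 from the mean of batches 1, 3 and 4 for the 7 tested genes: the black bar is the fitted log2 fold change with its 95% interval, and each symbol is the difference in log2 CPM within 1 group. MMP14 lies at 1.10 to 1.23 and PLAUR at 0.78 to 1.68 in the 4 groups, TIMP1 at −0.76 to −0.47, and SERPINE2 on both sides of 0.

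The promoter sequences of MMP14, PLAUR and TIMP1 are shown because these members separated batch 2, and because hypoxia-responsive genes, read below, were also higher there. HIF dimers bind ACGTG or GCGTG within the hypoxia response element. Both words were searched on either strand in the 250 bases before each transcript start in the RefSeq table (GRCh38.p14), which gave entries for 5 of the 8 members, 7 starts in all. Of all 35116 windows of that length in the table, 18.5% hold ACGTG, 32.2% hold GCGTG and 43.2% hold either, so a match is frequent. Matches are in capitals, and all sequences read 5′ to 3′ on the gene's strand. The MMP14 window holds ACGTG on the opposite strand 96 bases before the start, within chr14:22836335-22836556 (plus strand). TIMP1 has ACGTG 231 bases before its start, within chrX:47582186-47582312 (plus strand), and GCGTG 36 bases before it, within chrX:47582388-47582417. PLAUR has GCGTG on the opposite strand 86 bases before its start, within chr19:43670238-43670267 (minus strand). The PLAUR stretch and the TIMP1 stretch near the start lie inside the gene spans given above, so they overlap annotated transcripts.
MMP14, upstream: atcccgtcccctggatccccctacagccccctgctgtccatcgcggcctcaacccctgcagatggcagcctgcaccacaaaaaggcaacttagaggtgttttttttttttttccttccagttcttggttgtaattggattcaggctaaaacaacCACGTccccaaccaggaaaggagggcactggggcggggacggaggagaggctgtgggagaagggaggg
TIMP1, upstream: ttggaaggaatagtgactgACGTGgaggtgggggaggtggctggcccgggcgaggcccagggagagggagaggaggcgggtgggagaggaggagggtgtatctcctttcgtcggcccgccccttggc
TIMP1, near the start: cccccgcccctaGCGTGgacatttatcctc
PLAUR, near the start: gggggaggcgccCACGCatctggggctgac

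SERPINE2, which did not separate batch 2, has a palindromic CACGTG that holds ACGTG on both strands, within chr2:224031547-224031576 (minus strand). Another SERPINE2 start has GCGTG 132 bases before it, not printed here. Its bases 5′ to 3′ follow, as does the PLAU window, where GCGTG lies on the opposite strand 113 bases before a start, within chr10:73911007-73911036 (plus strand). Another PLAU start in the table has neither word in its 250 bases, the only such start of the 7. A word was present before at least 1 start in each of the 5 members with an entry. PLAT, MMP2 and TIMP2 had no entry, and a link of either word to the batch differences was not tested. The SERPINE2 and PLAU stretches also lie inside the spans of their genes. A match describes letters in a window and not a bound site.
SERPINE2, upstream: tgatgctaggtCACGTGgtcacatgccctt
PLAU, upstream: gcgttgcggaagCACGCggggtccgggtcg

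The batches compared above differ in more than these genes. Of 12 hypoxia-responsive genes listed for context, 11 were called in batch 2, all higher, with a median log2 fold change of 1.61 over the 12, against 0.035 over all tested genes. NDRG1, a stress-induced growth regulator, had 3.27, PDK1, which restrains pyruvate oxidation, 2.81, and CA12, a carbonic anhydrase, 2.57, while the glucose transporter SLC2A1 was not called at 0.055. The summed TPM of 7 fibroblast or mesenchymal markers was 107 to 111 in batch 2 and 45.6 to 60.7 elsewhere. LUM, PDGFRB and DCN had the highest means of the 7, 26.4, 26.7 and 12.9 TPM over the 16 libraries, while COL1A2 had at most 4 counts in any. Schwann markers summed to 6.60 to 8.50 against 3.98 to 6.79 TPM, endothelial markers to 0.272 to 0.556 against 0.024 to 0.275 TPM, leukocyte markers to 1.49 to 2.10 against 1.08 to 1.98 TPM, and adrenergic markers to 3593 to 3732 against 3186 to 3865 TPM. The part of any of these in the member differences was not tested. In such bulk libraries, more cells of a type and more RNA per cell cannot be told apart.

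Between the groups, no member was called in any of the 6 comparisons, with or without the batch as a block. Without the block, edgeR called 0.0102% of all tested genes in FL against WT, 0.0256% in NCTAD against WT, 0.0102% in cIDR against WT, and 0% in each comparison between constructs. With the block the shares were 0.102%, 0.456% and 0.486% against WT, and between constructs they were 0% for NCTAD and 0.0307% for cIDR, each set against FL, and 0.00512% for cIDR set against NCTAD. Of the 42 member tests per fit, 0 had an unadjusted p under 0.05 without the block, where the smallest was 0.0983, and 3 with it, where the smallest was 0.0139. Over the same 6 comparisons of all tested genes, 1.05% of tests had an unadjusted p under 0.05 without the block and 4.34% with it. DESeq2, without the block, also called 0 members. The largest log2 difference among the 42 without the block was 0.54 in size. A p that misses the threshold does not show that the groups were alike.

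**Figure D4:**
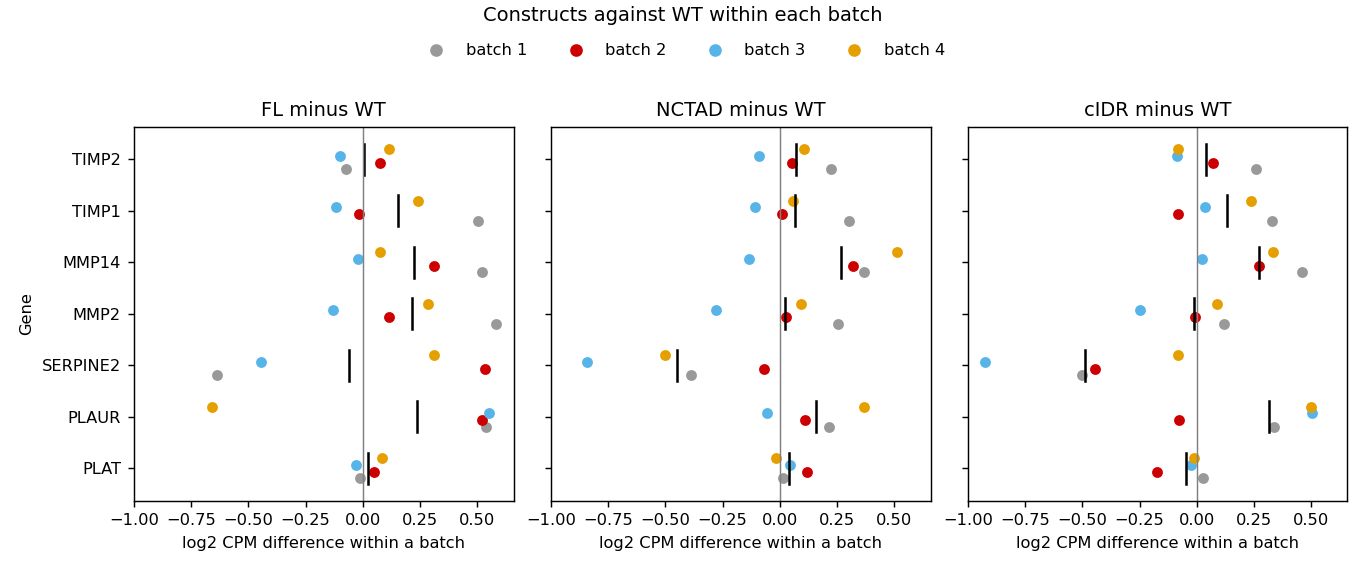
Log2 CPM of each construct minus WT within each batch for the 7 tested genes, 1 point per batch in its colour, with a black bar at the mean of the 4 batches. SERPINE2 is below 0 in all 4 batches in NCTAD and cIDR, and MMP14 is above 0 in 4 of 4 batches in cIDR and in 3 of 4 in FL and NCTAD.

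Of the 7 tested members, SERPINE2 had the largest single log2 difference between 2 groups, on low counts. It was at 0.438, 0.447, 0.748 and 0.505 CPM in WT and at 0.267, 0.666, 0.537 and 0.637 CPM in FL, in batches 1 to 4, from 11 to 34 counts. NCTAD was at 0.325, 0.424, 0.398 and 0.344 CPM and cIDR at 0.298, 0.317, 0.374 and 0.474 CPM, from 11 to 22 counts. NCTAD lay below WT in 4 of 4 batches and its highest library was below the lowest WT library, while cIDR was lower in 4 of 4 batches and overlapped WT. The log2 fold changes from WT were −0.51 ± 0.31 in NCTAD (95% interval −1.16 to 0.14, adjusted p = 1) and −0.54 ± 0.31 in cIDR (95% interval −1.19 to 0.11, adjusted p = 0.9999). Over all tested genes, 6.48% were lower than WT in 4 of 4 batches in NCTAD and 7.15% in cIDR, and 0.558% were lower in NCTAD without overlap. Without WT replicate 3 the log2 fold changes were −0.33 and −0.35. Over the 26 alternatives listed at the end they ran from −0.87 to −0.31 in NCTAD and from −0.82 to −0.29 in cIDR. FL overlapped WT and was lower in 2 of 4 batches.

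MMP2 was at 191, 161, 203 and 176 CPM in WT, 286, 175, 186 and 214 CPM in FL, 228, 165, 168 and 187 CPM in NCTAD, and 207, 160, 171 and 187 CPM in cIDR, in batches 1 to 4. FL was above WT in 3 of 4 batches and above NCTAD and cIDR in 4 of 4, and all groups overlapped. The log2 fold change of FL from WT was 0.24 ± 0.15 (95% interval −0.076 to 0.55). It was −0.20 ± 0.15 for NCTAD against FL and −0.25 ± 0.15 for cIDR against FL, and over all tested genes 5.21% and 5% were lower than FL in 4 of 4 batches. These were the 3 tests with an unadjusted p under 0.05 once the batch was a block (adjusted p = 0.92, 0.996 and 1). With the block the 3 values were 0.21, −0.19 and −0.23. Without FL replicate 1 they were 0.11, −0.10 and −0.14 with the block (unadjusted p = 0.11, 0.147 and 0.0609), and 0.054, −0.035 and −0.072 without it, where a library left out also unpairs its batch. Within batches 2 to 4, where that library has no part, FL minus WT was 0.11, −0.13 and 0.29 in log2 CPM, NCTAD minus FL −0.084, −0.15 and −0.20, and cIDR minus FL −0.12, −0.12 and −0.20.

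MMP14 was at 1.90, 4.37, 2.27 and 1.89 CPM in WT and 2.74, 5.44, 2.24 and 1.99 CPM in FL, in batches 1 to 4. NCTAD was at 2.46, 5.47, 2.06 and 2.71 CPM and cIDR at 2.63, 5.30, 2.30 and 2.39 CPM. The construct was higher in 3, 3 and 4 of 4 batches for FL, NCTAD and cIDR, while 10.6% of all tested genes were higher in cIDR than in WT in 4 of 4. The spread between batches was wider than any difference between groups. The log2 fold changes from WT were 0.25 ± 0.41, 0.28 ± 0.41 and 0.28 ± 0.41 (95% intervals −0.62 to 1.11, −0.58 to 1.15 and −0.59 to 1.14). Without the block they became −0.17, −0.12 and −0.099 when the batch 2 library of the construct was left out, and 0.62, 0.65 and 0.65 when WT replicate 2 was. With the block they were 0.23 ± 0.13, 0.27 ± 0.13 and 0.27 ± 0.13 (adjusted p = 0.92, 0.846 and 0.935), and with the block and each library left out they ran from 0.15 to 0.30, 0.18 to 0.35 and 0.21 to 0.36.

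PLAUR was at 0.355, 0.819, 0.265 and 0.307 CPM in WT and 0.534, 1.19, 0.408 and 0.179 CPM in FL, in batches 1 to 4, and NCTAD was at 0.418, 0.888, 0.253 and 0.409 CPM and cIDR at 0.460, 0.775, 0.394 and 0.452 CPM. Each of the 3 constructs was higher than WT in 3 of 4 batches, and the groups overlap throughout. For FL against WT the log2 fold change was 0.40 ± 0.53 (95% interval −0.73 to 1.52), and without the block it was −0.24 without FL replicate 2 and 0.90 without WT replicate 2. With the block it was 0.34 ± 0.30, and 0.17 and 0.38 without those libraries in turn. The highest such value was 0.61, without FL replicate 4. For NCTAD and cIDR against WT the log2 fold changes were 0.16 ± 0.53 and 0.25 ± 0.53, and with the block 0.18 ± 0.30 and 0.34 ± 0.30.

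TIMP1 was at 32.0, 23.9, 35.4 and 32.5 CPM in WT and 45.3, 23.6, 32.6 and 38.5 CPM in FL, which was higher in 2 of 4 batches. The log2 fold change of FL was 0.18 ± 0.21 (95% interval −0.27 to 0.62), and 0.013 without FL replicate 1. With the block it was 0.15 ± 0.081, and 0.069 without that library. NCTAD, at 39.5, 24.1, 32.8 and 33.8 CPM, and cIDR, at 40.1, 22.6, 36.4 and 38.4 CPM, overlapped both and were each higher than WT in 3 of 4 batches. Their log2 fold changes from WT were 0.073 ± 0.21 and 0.15 ± 0.21, and with the block 0.061 ± 0.081 and 0.13 ± 0.081.

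Of the 7 tested members, PLAT and TIMP2 had the smallest range of differences between the groups. PLAT had means of 51.3 ± 6.94 (WT), 52.2 ± 7.96 (FL), 52.9 ± 9.09 (NCTAD) and 49.4 ± 3.94 (cIDR) CPM (SD, n = 4), and its log2 differences in the 6 comparisons ran from −0.097 to 0.045. TIMP2 was at 226 to 254, 214 to 262, 238 to 263 and 226 to 270 CPM in that order, with log2 differences from −0.029 to 0.072. The groups overlap in both genes.

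PLAU, the urokinase gene, had 3, 7, 5 and 4 counts in WT, 1, 3, 2 and 0 in FL, 3, 13, 10 and 1 in NCTAD, and 0, 4, 3 and 2 in cIDR, in batches 1 to 4. The sums were 19, 6, 27 and 9 counts. The 0 in FL replicate 4 allows up to 0.0597 CPM and the 0 in cIDR replicate 1 up to 0.0812 CPM (3 counts of the library, for counting error only), levels within the range of the other libraries. FL was below WT in 4 of 4 batches without overlap, though FL replicate 2 at 0.0587 CPM and WT replicate 1 at 0.0626 CPM, the nearest libraries, both rest on 3 counts. cIDR was below WT and NCTAD above FL in 4 of 4 batches, and both pairs overlapped. Over all tested genes, 3.95% were lower in FL than in WT in 4 of 4 batches and 0.358% were lower without overlap, 7.15% were lower in cIDR than in WT in 4 of 4, and 6.02% were higher in NCTAD than in FL in 4 of 4. PLAU did not pass the low-count filter and has no test in the fits above. With no such filter, over 36718 genes, edgeR gave PLAU an unadjusted p of 0.0797 for FL against WT and of 0.0287 for NCTAD against FL, and of 0.0525 and 0.0301 with the block. The adjusted p was 1 in all 6 group comparisons in both of these fits.

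Batch took 90.7% of the variance of log2 CPM over the 16 libraries for MMP14, 88.4% for PLAT, 86.0% for TIMP1, 77.5% for PLAUR and 59.0% for MMP2. Group took 4.48%, 3.27%, 3.96%, 3.33% and 18.9% of it in the same genes. For SERPINE2 the shares were 31.8% and 33.6%, for TIMP2 16.2% and 10.0%, and for PLAU, on its few counts, 40.4% and 39.3%. Either term takes a share by chance alone, so a share is a description and not a test.

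Across the 16 libraries, MMP14 and PLAUR had a correlation of 0.914 in log2 CPM, and 0.633 after subtracting batch means. MMP2 and TIMP1 had 0.783, and 0.737 after that subtraction, a value pooled over the batches. FL replicate 1 held the highest value of both genes, at 286 and 45.3 CPM. In batch 2 the highest MMP2 was in FL and the highest TIMP1 in NCTAD, and in batch 3 they were in WT and cIDR. MMP14 and TIMP1 had −0.774, and 0.527 after subtracting batch means. Libraries share batches and depth, so these values are descriptions over 16 points.

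The genes whose profiles were most like a member's were found by Pearson's r over 16 libraries among genes with a symbol and a mean log2 CPM of at least 1. For MMP14 they were SHMT2 (0.980) and PRKD2 (0.976), for TIMP1 RNASEH2A (0.989) and CD320 (0.982), and for PLAT SIPA1L2 (0.955) and SLC48A1 (0.950). For MMP2 they were RBM42 (0.967) and CBR1 (0.951), and for TIMP2 MCFD2 (0.898) and PRDM4 (0.897). After subtracting batch means, RNASEH2A remained the most like TIMP1 (0.934, followed by NOSIP at 0.914), while the others were replaced: NOP14-AS1 (0.927) and FRMD8 (0.897) for MMP14, IER3 (0.830) and NTNG1 (0.806) for PLAT, ELAC2 (0.946) and AAMP (0.946) for MMP2, and PPM1F (0.945) and SREBF2 (0.943) for TIMP2. These are the highest of many correlations and carry no test.

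The wider pathway was read from a list of 57 other genes of pericellular proteolysis, of which 35 were tested. The remaining 22 had at most 18 counts in any library, and 8 of them, MMP3, MMP7, MMP8, MMP20, MMP26, MMP27, FAP and DPP4, had 0 in all. PLG, plasminogen itself, had at most 2 counts. In the 6 group comparisons 0 of the 35 were called by edgeR, with or without the block. Of the 210 tests, 2 had an unadjusted p under 0.05 without the block and 19 with it, against the 1.05% and 4.34% of tests over all tested genes. For the hypoxia-responsive list, without the block 0 of its 12 genes were called, and with it 0 in FL, 7 in NCTAD and 7 in cIDR were higher than WT, and 1 was higher in cIDR than in FL. That list was given for context, and its difference from the proteolysis genes was not tested.

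In batch 2, 26 of the 35 were called, or 74.3%, against 53.9% of all tested genes. Of the 26, 16 were higher and 10 lower (27.7% and 26.1% of all tested genes). The median log2 fold change over the 35 was 0.30, against 0.035 over all tested genes. Of the 7 tested genes of plasminogen activation and its receptors, 5 were higher and 0 lower. MRC2, the collagen receptor that binds the urokinase receptor complex, was at 44.0 to 52.0 CPM in batch 2 and 9.73 to 18.1 CPM elsewhere (log2 fold change 1.64 ± 0.075, adjusted p = 3.14e-10). LRP1, which clears protease-inhibitor complexes, was at 32.7 to 43.6 CPM against 11.5 to 18.1 CPM (1.39 ± 0.065, adjusted p = 3.29e-10). VLDLR, a receptor of the same family, was at 48.5 to 53.0 against 30.5 to 37.2 CPM (0.63 ± 0.047, adjusted p = 4.83e-08).

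Of the 7 tested metalloproteases of the list, 4 were higher and 2 lower. MMP9, the other gelatinase, was at 0.940 to 1.60 CPM in batch 2 and 0.0452 to 0.263 CPM elsewhere, from 2 to 91 counts (log2 fold change 3.17 ± 0.30, adjusted p = 5.58e-07), opposite in direction to MMP2. The ADAM and ADAMTS proteases split, with 3 higher and 4 lower of 10. ADAMTS4, an aggrecanase, was at 7.23 to 8.07 against 1.76 to 3.64 CPM (1.71 ± 0.10, adjusted p = 4.62e-09), and ADAMTS1, a versican-cutting protease, at 52.7 to 62.7 against 96.4 to 112 CPM (−0.81 ± 0.055, adjusted p = 1.95e-08). Of 4 tested regulators of metalloproteases 2 were higher and 1 lower, and of 4 tested other pericellular proteins 0 were higher and 3 lower. Of 3 tested inhibitors 2 were higher and 0 lower. In all, 16 of the 35 showed no overlap between batch 2 and the other batches, against 29% of all tested genes.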

How the data were processed

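The deposited estimated counts per gene (expected counts, not scaled for depth or length) and TPM (scaled by length to the same sum) come from salmon, per the table names. The submitters' processing notes name fastp, STAR, Salmon, featureCounts and GRCh38, without versions or order. Per the labels, libraries were poly(A)-selected and stranded, from about 250 ng of RNA and 13 PCR cycles.

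Counts, 15.5% of them not whole, were rounded. filterByExpr by group left 19530 genes. edgeR 4.0.16 (R 4.3.3) with TMM tested the 6 group comparisons by quasi-likelihood over 16 libraries with group as the term. Adding batch gave the replicate block and the contrast of batch 2 with the mean of batches 1, 3 and 4. Benjamini-Hochberg adjustment ran over all tested genes. SE is the log2 fold change over the square root of F, and intervals are 95%. CPM use TMM-scaled library sizes, with a prior count of 2 in log2 CPM.

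The numbers pair libraries because the labels call them batches: log2 CPM deviations from group means correlated at 0.308 on average within a batch (0.0674 to 0.712, 24 pairs) and −0.0945 between batches. The biological coefficient of variation was 0.245, and 0.108 with the block. No replicates were copies of each other by chi-square.

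Members, lists and the contrast of batch 2 were chosen with earlier results of these data known. By rule, the text names the 8 members, up to 6 called list genes per comparison with the smallest adjusted p, the 2 most like genes of members with a mean TPM of at least 1, and at most 3 called hypoxia genes with the largest change. SLC2A1, the uncalled one, PLG and genes with 0 counts were named after their values were seen. Cell type markers and overlapping genes are given as context. A listed gene that the rule also names is not reported here. The script was tested on simulated data. Alternatives used limma 3.58.1 and DESeq2 1.42.0. Figures used matplotlib 3.10.9.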

Additional observations from a re-analysis of the deposited data

Results flagged for a closer look

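Among the 32 sets of 4 libraries (8 genes in 4 groups), 3 held a library far from the others by Dixon's criterion at the 95% level, which chance flags in about 1 of 20 sets. All 3 were libraries of batch 2. PLAUR in WT replicate 2 was at 0.819 CPM, against 0.265 to 0.355 CPM in the other WT libraries. MMP14 in WT replicate 2 was at 4.37 CPM, against 1.89 to 2.27 CPM. MMP14 in cIDR replicate 2 was at 5.30 CPM, against 2.30 to 2.63 CPM.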

How the results depend on the processing

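The count of members called stayed at 0 in each of the 6 group comparisons under all 26 alternatives run per comparison, among them the replicate block (0), median-of-ratios size factors, DESeq2, other filters, only the 8 libraries compared, TPM on a log scale and each library left out, and with batch 2 left out whole. Leaving out batch 2 or each library with the block, and PLAU with the block and no filter, were chosen after seeing the data. In batch 2 it was 4 to 6, and 5 whichever library was left out. MMP14, PLAUR, PLAT and TIMP1 kept their direction and call in every alternative that tested them, though PLAUR was 0.67 with log2(TPM + 1) and was not tested with at least 10 counts in every library. MMP2 in batch 2 lost its call with log2(TPM + 1) (−0.16) and log2(TPM + 0.1) (−0.16, adjusted p = 0.106). SERPINE2 in batch 2 changed sign with log2(TPM + 1) (−0.0064), log2(TPM + 0.1) (−0.023) and without batch 1 (−0.11), and ran from −0.10 to 0.20 with each library left out. MMP14 in NCTAD against WT changed sign with log2(TPM + 1) (−0.039) and log2(TPM + 0.1) (−0.071), as did PLAUR (−0.068 and −0.16) and TIMP1 (−0.017 and −0.017) in that comparison. TIMP1 there was also −0.024 with the block and without WT replicate 1. With each library left out and no block, MMP14 against WT ran from −0.17 to 0.62 in FL, −0.12 to 0.65 in NCTAD and −0.099 to 0.65 in cIDR, and PLAUR from −0.24 to 0.90, −0.29 to 0.66 and −0.019 to 0.75 in the same order. TIMP1 in NCTAD against WT ran from −0.035 to 0.19. Counts of 9 to 61 limit PLAUR, 11 to 34 SERPINE2 and 0 to 13 PLAU. The causes were not tested.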
